A study of Homo sapiens with 4 samples.

Results

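Annexins and S100 proteins were examined across the 4 arrays through every probe set that the HG-U95Av2 annotation assigns to 10 listed genes: ANXA1, ANXA2, ANXA4, ANXA5, S100A2, S100A4, S100A6, S100A10, S100A11 and S100P. Of these 10 genes, 9 had a probe set, with 13 probe sets in all, and 8 reached a log2 level of 5 on at least 1 array, out of 3588 genes that did so among 8225 on the array. S100A6 was not analysed here, and ANXA1 stayed under 5 on all 4 arrays.

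The cells were LS180, an established human colon carcinoma line, carrying a Tet-off system in which removal of doxycycline turns on RBM35A. RBM35A is an earlier name of ESRP1, an epithelial RNA-binding protein that controls splicing. RBM35A+ cells had grown without doxycycline for at least 6 days, and the RBM35A- cells, which the labels call parental, were kept in doxycycline. Polysomal RNA, which is mRNA that sediments with many ribosomes in a sucrose gradient, and total RNA were profiled from both, on 1 array each. The 4 groups were thus polysomal RNA of RBM35A+ cells, polysomal RNA of RBM35A- cells, total RNA of RBM35A+ cells and total RNA of RBM35A- cells. Doxycycline and RBM35A state changed together, and the labels do not say whether the parental cells held the RBM35A construct or whether the Tet-off line was 1 clone, so these cannot be told apart. RNA fraction changed together with the way the RNA was extracted, and the polysomal samples alone are labelled as polyA RNA. No probe set was annotated to ESRP1 (0 of 12626), so the RBM35A state rests on the labels. With 1 array per group no replicate error exists and no test was made, and the number of arrays limits the precision of every value below.

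Annexins are cytosolic proteins that bind acidic phospholipids of membranes when calcium rises, and they act in membrane traffic, membrane repair and the linking of membranes to actin. S100 proteins are small dimeric EF-hand proteins that open a binding groove for target proteins when they take up calcium. The families meet in complexes: an S100A10 dimer binds the amino-terminal tail of ANXA2, and S100A11 binds that of ANXA1. S100A10 is held permanently in the open, target-binding form, and in human and mouse cells its protein depends on ANXA2 for stability. In gut epithelium the ANXA2 and S100A10 complex lies under the plasma membrane, and S100P is known for high levels in carcinomas of the digestive tract.

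The listed S100 genes other than S100P lie on 1 chromosome, and the annexin genes lie on several. In the RefSeq gene table of assembly GRCh38.p14, S100A10 and S100A11 are adjacent protein-coding genes on chromosome 1, and S100A2 has S100A3 and S100A16 as its neighbours on the same chromosome. S100A4 lies between S100A5 and S100A3 there, whereas S100P is on chromosome 4. ANXA2 is on chromosome 15, ANXA1 on chromosome 9, ANXA4 on chromosome 2 and ANXA5 on chromosome 4. The array data name no genome build, and the table was used for chromosomes, names and neighbours.

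Start-site windows of 300 bases, 250 before and 50 after each RefSeq start, are shown for the binding partners ANXA2 and S100A10, for S100A2, the 1 member past 1.5-fold with RBM35A, and for S100P, which differed little. Each is given 5′ to 3′ on the strand of the gene, with motif matches in capitals. The motifs were the TATA box, spelled TATAAA, then the box bound by the factor Sp1, called the GC box and spelled GGGCGG, and the AP-1 site, spelled TGAGTCA, each searched on both strands. The ANXA2 window is chr15:60397937-60398236 on the minus strand, that of S100A10 is chr1:151993810-151994109 on the minus strand, that of the upstream S100A2 start is chr1:153565795-153566094 on the minus strand, and that of S100P is chr4:6693628-6693927 on the plus strand (GRCh38.p14, RefSeq).
ANXA2: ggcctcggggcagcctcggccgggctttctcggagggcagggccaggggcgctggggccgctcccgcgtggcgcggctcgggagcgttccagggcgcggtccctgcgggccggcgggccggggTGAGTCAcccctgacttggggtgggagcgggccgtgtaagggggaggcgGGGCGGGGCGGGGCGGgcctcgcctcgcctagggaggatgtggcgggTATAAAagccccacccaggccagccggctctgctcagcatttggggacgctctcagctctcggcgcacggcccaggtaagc
S100A10: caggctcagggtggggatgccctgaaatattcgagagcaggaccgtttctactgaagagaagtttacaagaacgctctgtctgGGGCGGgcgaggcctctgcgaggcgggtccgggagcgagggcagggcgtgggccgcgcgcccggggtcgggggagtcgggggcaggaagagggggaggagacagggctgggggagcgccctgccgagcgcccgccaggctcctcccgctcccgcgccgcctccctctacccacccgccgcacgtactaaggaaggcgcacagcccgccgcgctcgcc
S100A2: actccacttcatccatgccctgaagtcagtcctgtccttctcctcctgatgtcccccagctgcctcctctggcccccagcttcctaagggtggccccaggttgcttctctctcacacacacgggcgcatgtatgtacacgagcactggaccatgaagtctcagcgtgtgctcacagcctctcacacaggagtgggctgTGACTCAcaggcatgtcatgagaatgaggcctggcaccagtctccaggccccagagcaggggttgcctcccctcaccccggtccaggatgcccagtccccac
S100P: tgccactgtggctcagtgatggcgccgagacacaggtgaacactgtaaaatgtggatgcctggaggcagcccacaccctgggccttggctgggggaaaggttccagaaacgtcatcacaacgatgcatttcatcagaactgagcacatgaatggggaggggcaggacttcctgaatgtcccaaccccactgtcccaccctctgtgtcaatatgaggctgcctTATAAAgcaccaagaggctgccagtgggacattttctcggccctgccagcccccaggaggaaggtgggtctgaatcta

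The partners ANXA2 and S100A10 differed at their starts. The ANXA2 window held a TATA box that begins 31 bases before the start, 3 overlapping GC boxes and an AP-1 site 127 bases before the start, whereas the S100A10 window held 1 GC box and neither other motif. S100P had a TATA box 28 bases before its start, and the upstream S100A2 window had an AP-1 site 52 bases before the start, while the window of the other S100A2 start, not shown, held 0 matches to the 3 motifs. Over all 12 windows of the 10 genes, the TATA box was found in 4 (those of ANXA1, ANXA2, S100A4 and S100P), against 11.5% of 35116 RefSeq windows of the same length. The GC box was found in 7 of the 12, against 45.0% of all windows, and the AP-1 site in 2 of the 12, against 4.95%. GC content was 76.0% in the ANXA2 window, 71.7% in that of S100A10, 61.0% in that of S100A2 and 56.0% in that of S100P, with a median of 58.7% over all windows. These matches describe the letters and were not tied to any array value.

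Of all probe sets, 34.2% stood at 5 or more on each polysomal array and 33.8% on each total RNA array, shares that the normalization within each fraction makes equal. Colon epithelial identity was borne out by 13 of 14 markers at 5 or more, with KRT20 under it. FABP1, a fatty acid carrier, was the 1 of these past 1.5-fold with RBM35A, in total RNA (0.64). The log2 of the summed level of the colon markers was 14.54 in RBM35A+ and 14.77 in RBM35A- cells in polysomal RNA, and 15.46 in RBM35A+ and 15.45 in RBM35A- cells in total RNA. Of 10 blood cell markers on the array only HBB reached 5, and of 11 fibroblast and endothelial markers only COL1A1 did. Control probe sets at the 5′ end read lower in polysomal RNA of RBM35A+ than of RBM35A- cells, with a log2 difference of -0.86 at the beta-actin 5′ end, where the 3′ end had -0.02, and of -0.79 at the GAPDH 5′ end, where the 3′ end had -0.13. In bulk RNA, fewer cells with a transcript and less of it per cell cannot be told apart.

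Levels are given as deposited, on the GCRMA log2 scale, and in the main results differences are taken within a probe set only. Levels of different probe sets are shown side by side, with no difference computed between them. Because the fractions had been normalized apart, a level compared across fractions is relative to the rest of its own array. To gauge error, the scatter (SD) of a single probe set's difference was taken from the disagreement among 1075 probe sets of 489 genes that had at least 2. It was 0.187 for RBM35A+ minus RBM35A- in polysomal RNA, 0.211 in total RNA and 0.259 for the difference between these. For polysomal minus total RNA it was 0.840 in RBM35A+ and 0.807 in RBM35A- cells. This SD covers probes and not cultures. Over all 3588 analysed genes the SD of the RBM35A+ minus RBM35A- difference was 0.218 in polysomal and 0.223 in total RNA. A value beyond the probe set SD is therefore not in itself unusual among genes.

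Among the annexins, ANXA2 gave unlike readings from its probe sets. The probe set annotated to ANXA2 alone (757_at) read 2.87 in polysomal RNA of RBM35A+ cells and 2.88 in that of RBM35A- cells, but 7.98 in RBM35A+ and 8.12 in RBM35A- cells in total RNA. The 2 probe sets annotated jointly to ANXA2 and its pseudogenes ANXA2P1 and ANXA2P3 were bright on every array: 31444_s_at read 14.64 in polysomal RNA of RBM35A+ cells, 14.56 in that of RBM35A- cells, 15.14 in total RNA of RBM35A+ cells and 15.21 in that of RBM35A- cells. The other, 769_s_at, read 14.34 in RBM35A+ and 14.25 in RBM35A- cells in polysomal RNA, and 14.88 in RBM35A+ and 14.77 in RBM35A- cells in total RNA. Signal of the joint probe sets cannot be assigned to the gene or its copies. A probe set for the pseudogene ANXA2P1 alone (31684_at) read 6.78 in polysomal RNA of RBM35A+ cells, 6.57 in that of RBM35A- cells, and 7.81 in RBM35A+ and 7.85 in RBM35A- cells in total RNA.

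ANXA2 differed little with RBM35A wherever a probe set reached the floor in both states. In total RNA the difference of RBM35A+ minus RBM35A- was -0.14 at 757_at, -0.07 at 31444_s_at and 0.10 at 769_s_at, each under the probe set SD of 0.211. In polysomal RNA it was 0.08 and 0.10 at the joint probe sets, whose signal cannot be assigned to ANXA2 alone. There 757_at lay under the floor of 5 in both states, so its difference is unknown.

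ANXA1, an inflammation-damping annexin that acts on formyl peptide receptors when secreted, read 3.67 in RBM35A+ and 3.65 in RBM35A- cells in polysomal RNA, and 4.67 in RBM35A+ and 4.97 in RBM35A- cells in total RNA. No difference is drawn from levels under 5. ANXA4, an annexin of secretory epithelia, read 7.10 in RBM35A+ and 7.05 in RBM35A- cells in polysomal RNA, and 7.85 in RBM35A+ and 8.11 in RBM35A- cells in total RNA. Its total RNA difference with RBM35A was thus -0.26, beyond 1 probe set SD, and 345 of 3588 genes (9.62%) were at least as low. The polysomal difference of 0.05 was under the probe set SD.

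ANXA5, whose binding to phosphatidylserine is used to detect dying cells, read 7.26 in polysomal RNA of RBM35A+ cells and 7.01 in that of RBM35A- cells, against 7.25 in RBM35A+ and 7.30 in RBM35A- cells in total RNA. Its polysomal difference of 0.25 exceeded the probe set SD of 0.187, and 11.9% of all genes were at least as high. Its total RNA difference of -0.05 did not exceed 0.211. The polysomal array of RBM35A- cells was the low one among its 4 values.

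**Figure D1:**
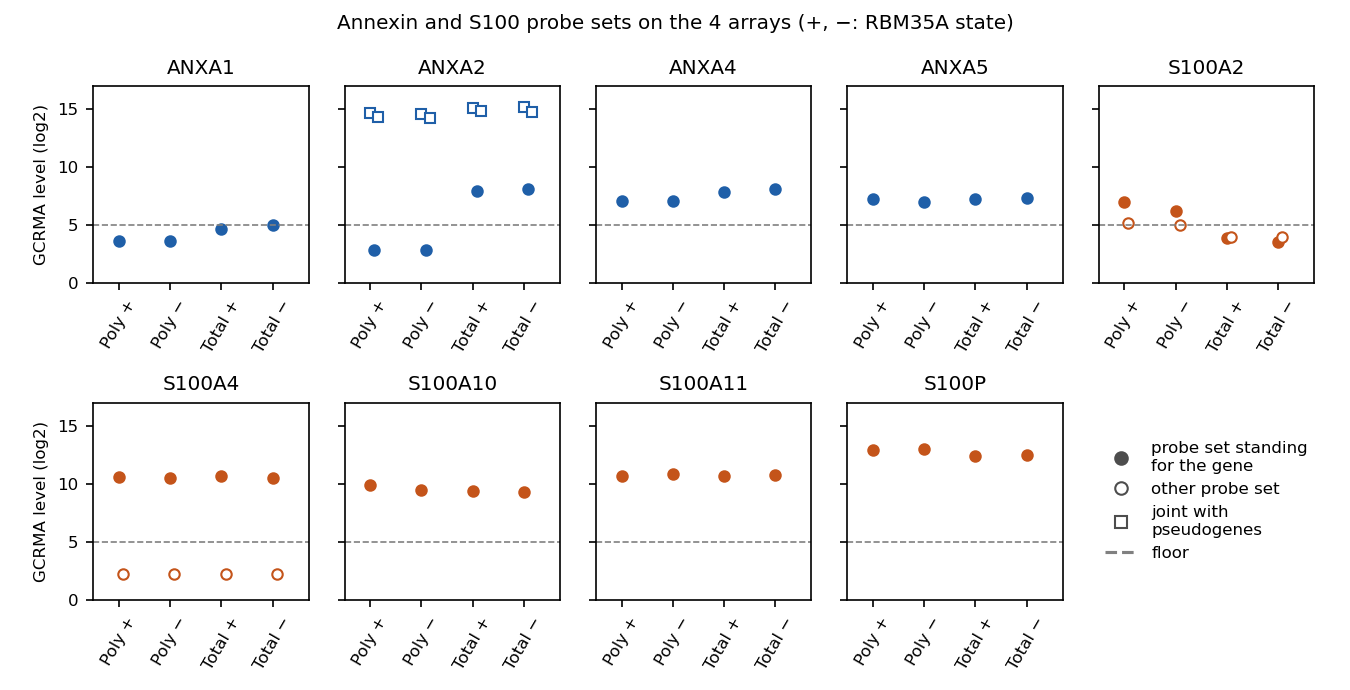
GCRMA level (log2, y axis) of every probe set of the 9 genes with a probe set, on the polysomal (Poly) and total RNA arrays of RBM35A+ (+) and RBM35A- (−) cells; 1 point is 1 array, filled points stand for the gene, and the dashed line is the floor of 5. ANXA2 read 2.87 in polysomal RNA of RBM35A+ cells at its own probe set and 14.64 at the brighter joint one (squares), and both S100A2 probe sets lay under the floor in total RNA.

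Of the S100 genes, S100A10, the partner of ANXA2, had its highest level in polysomal RNA of RBM35A+ cells. It read 9.90 there and 9.45 in polysomal RNA of RBM35A- cells, against 9.39 in RBM35A+ and 9.27 in RBM35A- cells in total RNA. In polysomal RNA this was 1.37-fold higher with RBM35A (log2 difference 0.45), or 2.41 times the probe set SD, and 89 of 3588 genes (2.48%) had a difference at least as high. In total RNA its difference was 0.12, under the SD of 0.211. The 3 other arrays of S100A10 lay within 9.27 to 9.45. Its polysomal minus total differences, 0.51 in RBM35A+ and 0.18 in RBM35A- cells, were under the probe set SD of that comparison.

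S100A2, a mostly nuclear S100 protein of stratified epithelia that can bind p53, was the member with the largest polysomal difference. Its probe set 2027_at read 7.01 in polysomal RNA of RBM35A+ cells and 6.25 in that of RBM35A- cells, against 3.92 in RBM35A+ and 3.52 in RBM35A- cells in total RNA. The polysomal level was 1.69-fold higher with RBM35A (log2 difference 0.76), and only 6 genes (0.167%), itself included, were as high. Its other probe set, 35726_at, read 5.16 in RBM35A+ and 5.00 in RBM35A- cells in polysomal RNA, a difference of 0.16 at the floor itself. The probe sets of S100A2 thus disagree on the size by more than the probe set SD, and in total RNA both lay under the floor.

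S100A4, an S100 protein tied to cell motility that binds non-muscle myosin, hardly varied. Its probe set 38087_s_at read 10.56 in RBM35A+ and 10.50 in RBM35A- cells in polysomal RNA, and 10.64 in RBM35A+ and 10.51 in RBM35A- cells in total RNA, and its second probe set was at background (2.22) on all 4 arrays. S100A11, the partner of ANXA1, read 10.68 in RBM35A+ and 10.85 in RBM35A- cells in polysomal RNA, and 10.67 in RBM35A+ and 10.77 in RBM35A- cells in total RNA. Its differences of -0.17 in polysomal and -0.10 in total RNA were the lowest among the S100 members in each fraction and stayed under the probe set SD.

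S100P, an S100 protein that signals through the receptor AGER when secreted and binds ezrin inside cells, read 12.91 in RBM35A+ and 12.95 in RBM35A- cells in polysomal RNA. In total RNA it read 12.36 in RBM35A+ and 12.43 in RBM35A- cells. The polysomal arrays were the high ones in both states, and the RBM35A differences of -0.05 in polysomal and -0.07 in total RNA were within the probe set SD.

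Counted over the 8 members, 1 was at least 1.5-fold higher and 0 were 1.5-fold lower with RBM35A in polysomal RNA, where 0.725% of all 3588 genes were 1.5-fold higher and 1.23% lower. The member was S100A2, and its second probe set did not reach 1.5-fold. The median of the members was 0.06 in polysomal RNA, beside 0.01 over all genes. In total RNA, 0 members were 1.5-fold higher and 0 lower, where 1.42% of genes were higher and 0.613% lower, and the median was -0.06 beside 0.00 over all genes. ANXA2 in polysomal RNA and S100A2 in total RNA entered at 0, since both levels were floored. The 6 members at 5 or more on all arrays also had medians of 0.06 in polysomal and -0.06 in total RNA. The beta-actin 5′ control differed by -0.86 between the polysomal arrays, opposite in sign to S100A2 and S100A10, and its part in these differences was not tested.

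**Figure D2:**
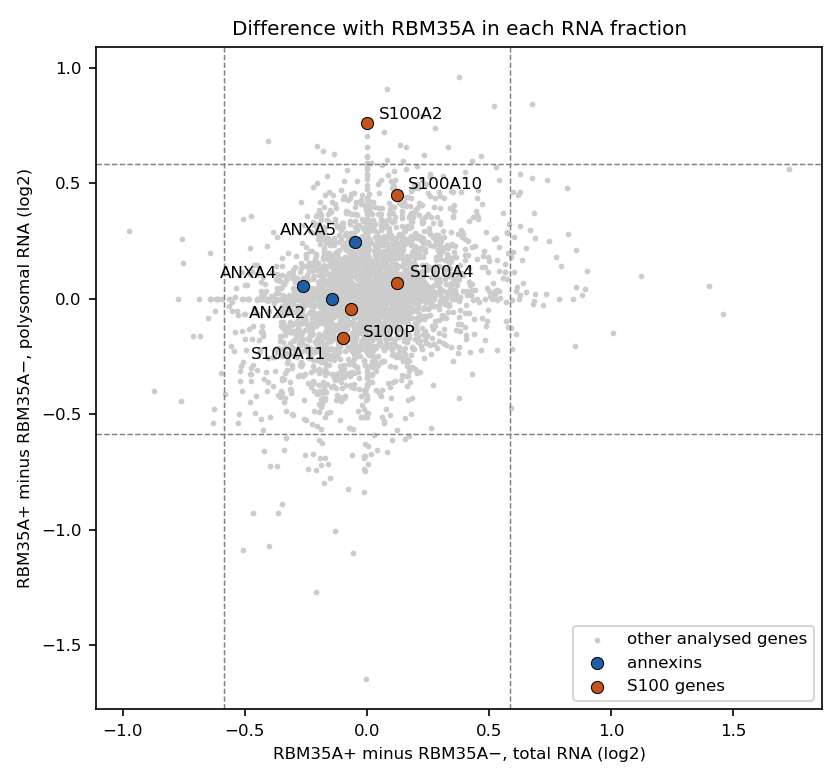
RBM35A+ minus RBM35A- difference (log2) in total RNA (x axis) against polysomal RNA (y axis), 1 point per analysed gene with floored values, annexins in blue and S100 genes in orange; dashed lines mark 1.5-fold. S100A2 (0.76) lies above the polysomal line and S100A10 (0.45) below it, while the other 6 members lie between -0.17 and 0.25 in polysomal RNA. ANXA2 in polysomal RNA and S100A2 in total RNA are drawn at 0 because both levels were floored.

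Whether the difference with RBM35A was the same in both fractions was asked by subtracting the total RNA difference from the polysomal one. For the 6 members at 5 or more on all 4 arrays the result was 0.33 for S100A10, 0.32 for ANXA4, 0.30 for ANXA5, 0.02 for S100P, -0.06 for S100A4 and -0.07 for S100A11. The first 3 exceeded the probe set SD of 0.259, which is close to the SD of this value over all genes (0.266). Of all 3588 genes, 9.81% were at least as high as S100A10, 10.8% as ANXA4 and 12.2% as ANXA5. The larger part was the polysomal difference in S100A10 and ANXA5 and the total RNA difference in ANXA4. Of the 6, 4 were above 0, beside 50.5% of the 3004 genes measured on all arrays. At 1.5-fold, 1 of the 8 members was higher, S100A2 at 0.76, and 0 were lower, where 1.31% of all genes were higher and 2.12% lower. That value of S100A2 rests on polysomal RNA alone, since both total RNA levels were floored, and it was 0.37 without a floor.

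Between fractions the members spread widely, and S100A2 and ANXA2 had to differ there, since each was analysed through the fraction in which it reached 5. In RBM35A+ cells, 1 of 8 members was at least 2-fold higher in polysomal than in total RNA, where 14.2% of all genes were, and 1 was 2-fold lower, where 7.94% were. In RBM35A- cells 1 was 2-fold higher, where 13.8% of genes were, and 2 were 2-fold lower, where 7.92% were. S100A2 was the higher one in both states: at least 4.04-fold in RBM35A+ and at least 2.38-fold in RBM35A- cells, both bounds because total RNA lay under the floor. Its probe set 35726_at gave only a bound of at least 0.16 in RBM35A+ cells, and nothing in RBM35A- cells, where it lay under the floor in both fractions.

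ANXA2 was lower in both states through its own probe set: at least 7.88-fold lower in polysomal than in total RNA of RBM35A+ cells, and at least 8.70-fold in RBM35A- cells. The joint probe sets did not share this, with -0.50 and -0.53 in RBM35A+ cells and -0.65 and -0.52 in RBM35A- cells. ANXA2P1 alone gave -1.03 in RBM35A+ and -1.28 in RBM35A- cells. Beside these stand the beta-actin controls, with -5.32 at the 5′ and -0.27 at the 3′ probe set in RBM35A+ cells, and -4.51 and -0.30 in RBM35A- cells. The transferrin receptor controls, like 757_at, lay under the floor in polysomal RNA and so give bounds: -1.60 or lower at the 5′ and -3.99 or lower at the 3′ probe set in RBM35A+ cells, and -1.16 or lower at the 5′ and -3.55 or lower at the 3′ probe set in RBM35A- cells. The size of these bounds is set by the total RNA level, so the 5′ and 3′ bounds cannot be compared with each other. Without a floor the transferrin receptor values were -4.14 at the 5′ and -4.32 at the 3′ probe set in RBM35A+ cells. In RBM35A- cells they were -3.69 and -3.92. Where 757_at lies along the transcript is not given in the sources used here, and the part of 5′ signal in its reading was not tested.

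ANXA4 was 1.67-fold lower in polysomal than in total RNA of RBM35A+ cells (-0.74) and 2.08-fold lower in RBM35A- cells (-1.06), beyond the probe set SD in RBM35A- cells only. The remaining members lay nearer to 0: S100P had 0.54 in RBM35A+ and 0.52 in RBM35A- cells, S100A10 had 0.51 in RBM35A+ and 0.18 in RBM35A- cells, and S100A4, S100A11 and ANXA5 lay between -0.29 and 0.08. These 5 genes were under the probe set SD of the fraction difference, 0.840 in RBM35A+ and 0.807 in RBM35A- cells. The median over the 8 members was 0.01 in RBM35A+ and 0.03 in RBM35A- cells, beside 0.09 and 0.09 over all genes. The fractions had been normalized apart, so these values place a gene relative to the rest of its own array.

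**Figure D3:**
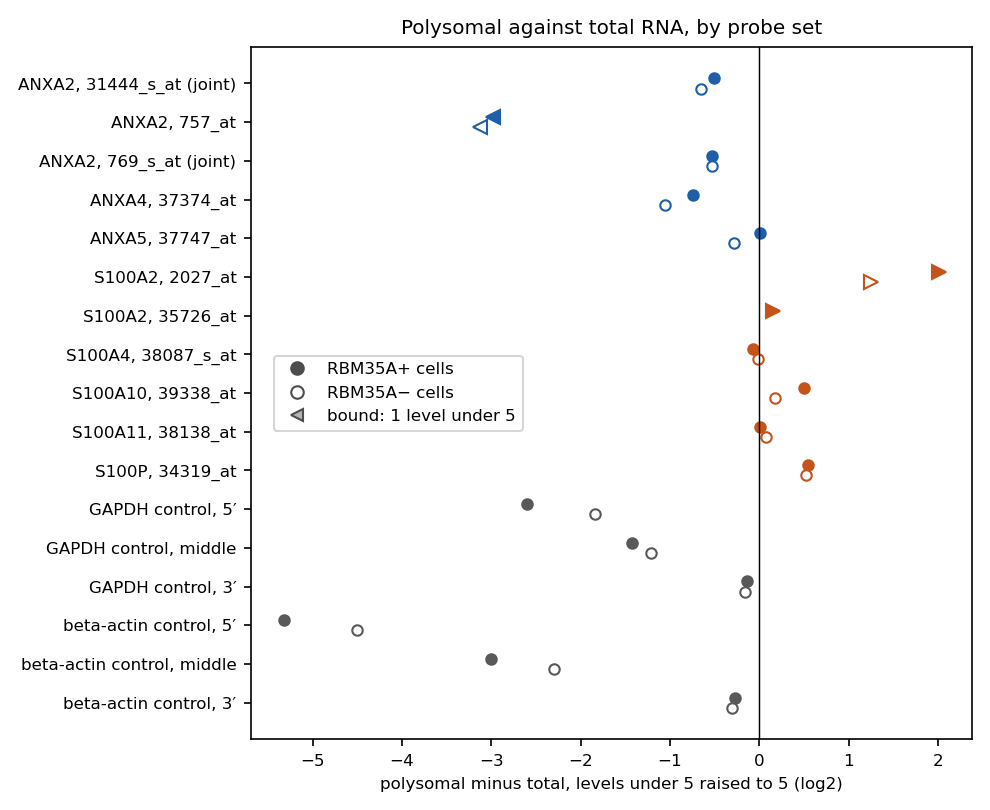
Polysomal minus total RNA (log2, levels under 5 raised to 5, x axis) in RBM35A+ (filled) and RBM35A- cells (open), for each member probe set that reached 5 on an array and for control probe sets along beta-actin and GAPDH; circles are measured on both sides, triangles are bounds with 1 level under 5, and values with both levels under 5 are left out. ANXA2 at 757_at is a bound at -2.98 in RBM35A+ and -3.12 in RBM35A- cells, while the joint ANXA2 probe sets lie between -0.65 and -0.50.

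The genes whose 4 levels most resembled those of S100A10, by Euclidean distance of the log2 values after removal of each gene's own mean over the 4 arrays, were RAB9A, an endosomal GTPase (distance 0.0677), POR, the electron donor of cytochromes P450 (0.0746), WDR47 (0.0910), the lysosomal amidase NAAA (0.0922) and the cell cycle factor E2F3 (0.0935). WDR47 and E2F3 were at the floor in total RNA of both states. For ANXA2 at 757_at the nearest were the proteasome chaperone PSMD5 (0.256), the nuclear lamina protein LMNB1 (0.361) and the lysosomal protease CTSC (0.407). TFDP2 (0.448) and SSR1, a subunit of the translocon-associated complex (0.451), came next. All were lower in polysomal than in total RNA, which follows from their choice by nearness to 757_at. The size of the gap they match depends on the floor, to which 757_at was raised in polysomal RNA. LMNB1 was at the floor in polysomal RNA of RBM35A- cells. ANXA2 at 757_at and S100A10 were not near each other by this measure, which used floored values of 4 arrays. The joint ANXA2 probe sets, which lacked the wide gap between fractions, were not compared in this way.

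Other genes of both families mostly stayed under 5. Of 7 further annexins with a probe set 4 were analysed. ANXA7, an annexin of secretory granules, read 7.47 in RBM35A+ and 7.45 in RBM35A- cells in polysomal RNA, and 7.75 in RBM35A+ and 8.11 in RBM35A- cells in total RNA, so that its total RNA difference was -0.36, the lowest of any annexin analysed. ANXA11, which ties RNA granules to lysosomes in neurons, had 0.17 in polysomal and -0.01 in total RNA, and ANXA3 and ANXA9 read no higher than 5.05 on any array, at or near the floor. Of 12 further S100 and S100-fused genes with a probe set, only S100A13 reached 5. S100A13, which aids the release of growth factors without a signal peptide, read 10.23 in RBM35A+ and 9.97 in RBM35A- cells in polysomal RNA, against 9.06 in RBM35A+ and 9.24 in RBM35A- cells in total RNA. It was 0.26 higher in polysomal and -0.18 in total RNA, and polysomal exceeded total RNA by 1.17 in RBM35A+ and 0.73 in RBM35A- cells. Of these 5 genes, 0 were 1.5-fold higher or lower with RBM35A in either fraction, which at 0.613% to 1.42% of all genes past the fold in a direction does not set them apart.

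Of 27 partners, receptors and neighbours in annexin and S100 pathways, 22 were on the array and 12 were analysed. In polysomal RNA 0 were 1.5-fold higher and 2 were lower with RBM35A: the phosphatase PPP5C, which S100 proteins can bind, at -0.74, and CDC42EP1, an effector of the GTPase CDC42, at -0.64. Over all genes 0.725% were higher and 1.23% lower. The median of the partners was -0.01, beside 0.01 over all genes. In total RNA the potassium channel KCNK3, whose traffic involves S100A10, was the 1 gene 1.5-fold higher (0.68), 0 were lower, and 11 of 12 lay above 0 with a median of 0.17. Over all genes 1.42% were higher, 0.613% lower and 1669 of 3588 above 0, with a median of 0.00. AHNAK, a giant scaffold that binds the ANXA2 and S100A10 complex, read 8.68 in RBM35A+ and 8.90 in RBM35A- cells in polysomal RNA, and 8.95 in RBM35A+ and 8.42 in RBM35A- cells in total RNA. Its difference was therefore -0.22 in polysomal and 0.53 in total RNA, so that the polysomal minus the total difference was -0.75, whereas that of S100A10 was 0.33. By that measure AHNAK and CDC42EP1 (-0.64) were the 2 partners 1.5-fold lower, and 0 were higher. Of all genes, 2.12% were lower and 1.31% higher. The median of the 12 was -0.22 beside 0.01 over all genes. It was also below 0 for the colon markers (-0.29) and the calcium-binding list below (-0.14). It was above 0 for the 6 members at 5 or more on all arrays (0.16) and the other annexins (0.08). The beta-actin control had -0.82 at its 5′ and 0.04 at its 3′ probe set, and the part of 5′ signal was not tested. The S100A6-binding protein CACYBP had 0.40 in polysomal and 0.16 in total RNA, and ezrin (EZR) had -0.09 in polysomal and 0.08 in total RNA.

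Other calcium-binding proteins of cytosol and membranes had 19 of 22 genes on the array analysed, and 0 passed 1.5-fold with RBM35A in either direction in either fraction. With 0.725% of all genes higher and 1.23% lower in polysomal RNA, and 1.42% higher and 0.613% lower in total RNA, a count of 0 among 19 does not set the list apart. Their median was -0.06 in polysomal and -0.01 in total RNA. The highest in polysomal RNA were the actin bundler PLS3 (0.29) and calumenin (CALU, 0.14), and the lowest were the calpain subunit CAPNS1 (-0.31) and PDCD6 (-0.29), a penta-EF-hand protein. In total RNA calreticulin (CALR, 0.40) and NUCB1 (0.35) were highest and NUCB2 (-0.33) and CALU (-0.24) lowest. S100A2 and S100A10 had higher polysomal differences than any of these 19 genes, while the other members with a measured value lay within their range. At its second probe set S100A2 had 0.16, below PLS3. The contrast between the lists was not tested.

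**Figure D4:**
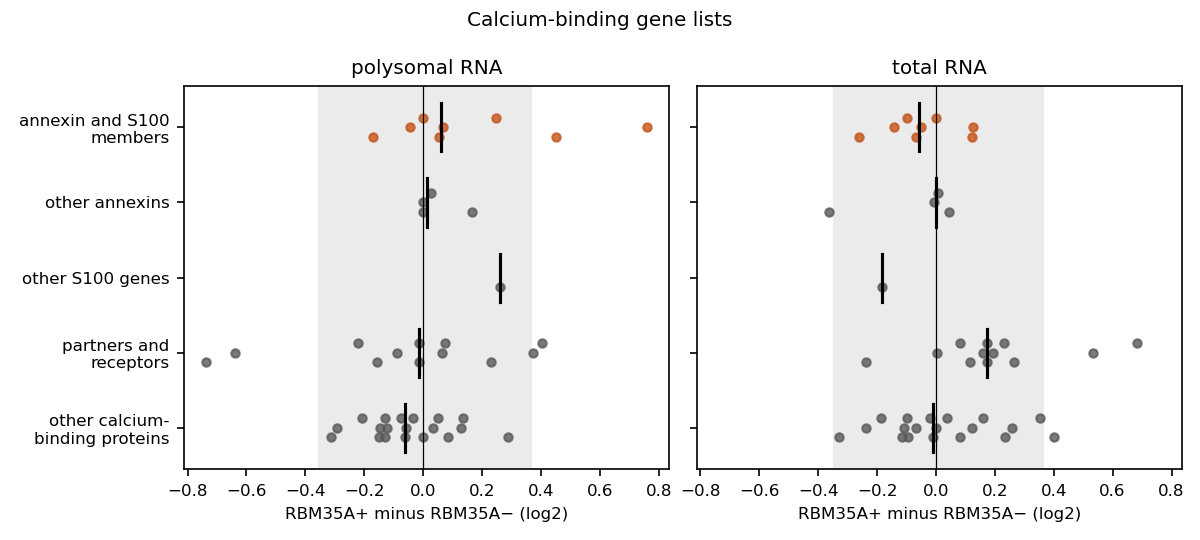
RBM35A+ minus RBM35A- difference (log2, x axis) of each analysed gene in 5 lists, in polysomal RNA (left) and total RNA (right); black bars are list medians, and the grey band holds the central 5th to 95th percentile of all 3588 genes. In polysomal RNA S100A2 (0.76) and S100A10 (0.45) lie above the band, which ends at 0.37, and all 8 members lie inside it in total RNA, where S100A2 is drawn at 0 because both its levels were floored. ANXA2 is drawn at 0 in polysomal RNA for the same reason.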

How the data were processed

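Total and polysomal RNA of LS180 cells was profiled on 4 Affymetrix HG-U95Av2 arrays, 1 per group. The deposited values are log2 levels. According to the submitters' processing notes, the authors summarised them with GCRMA, in a version not given in the sources used here. Sorted values agreed within each fraction (largest gap 6.61e-06) and differed by up to 0.227 between fractions, so the fractions were normalized apart, and a shift shared by most genes of an array would not show.

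Of 12626 probe sets, 67 were controls, 10943 had 1 gene symbol (10934 matched by gene ID to RefSeq GRCh38.p14 names), 546 several and 1070 none. Each gene was its single-symbol probe set with the highest mean; levels under 5 were raised to 5, and genes at 5 or more on an array were analysed. A difference with 1 floored side is a lower bound in size, and one with both sides floored is unknown. Log2 differences were computed in Python 3.11.15 with pandas 2.3.3. The subtraction was checked on simulated differences without noise, all in genes above the floor, so the handling of floored levels was not checked. Calls were at 1.5-fold between states and 2-fold between fractions, with no p-values. All members were named; genes of the 4 further annexin, S100, partner and calcium-binding lists were named where past the fold between states, otherwise as the 2 highest and 2 lowest, and markers only where a result touches them. CACYBP and ezrin were named as known partners with their values in view. The members and lists were chosen with earlier results of these data known. Alternatives were floors of 4, 6 and none, the mean of probe sets, leaving out probe sets of shared sequence, joint quantile normalization and removal of a level trend. ANXA2 through its joint probe sets was added after seeing the data.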

Additional observations from a re-analysis of the deposited data

Results flagged for a closer look

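A control probe set outside the members stood out: the 5′ probe set for 18S ribosomal RNA read 11.57 in total RNA of RBM35A+ cells, against 2.22 in total RNA of RBM35A- cells, and 2.22 on both polysomal arrays, while the 3′ probe set for the same RNA read 2.22 on all 4 arrays. No outlier check within groups was possible with 1 array per group.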

How the results depend on the processing

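With 1 array per group, no array could be left out, and the labels number no replicates. A fit of RBM35A state with fraction as a block, which leaves 1 residual degree of freedom, was not made. Of 120 values for counts and medians of the members under 8 alternatives, 113 stayed within 1.5 times the count or within 1 probe set SD of the median, and 7 counts did not. With the mean of the probe sets of each gene, 0 members were 1.5-fold higher with RBM35A in polysomal RNA or in the difference between fractions, against 1, since S100A2 then averaged 0.46, and 0 were 2-fold higher in polysomal than in total RNA of RBM35A- cells, against 1. A floor of 6 likewise gave 0 for this last count, and no floor gave 0 in the difference between fractions, where S100A2 was 0.37. With ANXA2 read through its joint probe sets, 0 members were 2-fold lower in polysomal than in total RNA of RBM35A+ cells, against 1, and 1 in RBM35A- cells, against 2. Of 315 values of single members, 296 moved by less than 1 probe set SD and 0 called ones changed sign; the 19 others concerned S100A2 and ANXA2. S100A10 in polysomal RNA stayed between 0.43 and 0.45. The floors and the choices of probe set could not move it, since its 1 probe set stood above 6 on every array. Only joint quantile normalization and removal of the level trend could. The same holds for the other members with 1 probe set that stood above 6 on every array. S100A4 was not analysed without probe sets of shared sequence. Over all genes, those 1.5-fold lower in total RNA with RBM35A numbered 22, and 12 with a floor of 6, 34 with a floor of 4 and 34 with none. Levels near the floor limit ANXA1, S100A2 and 757_at.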
